A study of Mus musculus with 2 samples.

Results

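Primitive erythroid cells, the first red blood cells of the embryo, were examined in single-cell RNA data from mouse embryos at E9.5. They were chosen by their globin RNA: a cell was taken when UMIs (unique molecular identifiers, each marking 1 captured RNA molecule) of Hba-x, Hba-a1, Hba-a2, Hbb-y, Hbb-bh1, Hbb-bt and Hbb-bs made up at least 20% of its UMIs. This selected 162 of the 17699 cells of the series. All 162 lay in the library labelled cKO, which held 10281 cells, and none of the 7418 cells of the library labelled Ctrl was selected. The globin share chose the cells, so it is given as a description, and the contrast with other cells carries no test.

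The study isolated mesoderm cells from the pharyngeal apparatus and heart of Swiss Webster embryos. The Ctrl embryos were Mesp1Cre;Rosa26-GFPflox/+ and the cKO embryos Mesp1Cre;Rosa26-GFPflox/+;Tbx1flox/flox, so both carried a Cre driven in early mesoderm and the GFP reporter it turns on. Living cells with GFP were taken by flow sorting with DAPI as the death stain, and a pair of pooled embryos per group gave 1 droplet-based 3′ library. The files analysed here hold 1 library per group, so every interval below covers counting error only, and differences between the groups have no replicate check. The study lists slightly more somites for the cKO embryos, so genotype, stage, dissection and library cannot be told apart. Whether each erythroid cell carried GFP was not tested.

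Primitive erythroid cells arise in the blood islands of the yolk sac, enter the circulation while still nucleated and dividing, and mature there together as a cohort. They are known for the embryonic globins: zeta (Hba-x) pairs as an alpha-type chain with epsilon-y (Hbb-y) and beta-H1 (Hbb-bh1), whereas later, definitive red cells rely on Hba-a1, Hba-a2, Hbb-bs and Hbb-bt. Their programme is driven by Gata1, Tal1 and Klf1, and couples globin synthesis to haem synthesis and iron uptake.

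Promoter sequences are shown for the most abundant alpha-type and beta-type globin of these cells and for Klf1, the erythroid Krüppel-like factor, because GATA and Krüppel-like factors are the known regulators of this programme. Each runs 5′ to 3′ on the strand of its gene, from 250 bases before to 50 after the annotated start, and comes from RefSeq on GRCm38.p6. Capitals mark the GATA words on either strand, namely AGATAA, the word TGATAA, the word AGATAG or the word TGATAG. The Krüppel-like word CCACACCC and its variant CCGCACCC were also searched on both strands, and the matches marked here do not overlap. Hba-x lay at chr11:32276350-32276649 (+ strand), Hbb-y at chr7:103853158-103853457 (- strand) and Klf1 at chr8:84901732-84902031 (+ strand).
Hba-x: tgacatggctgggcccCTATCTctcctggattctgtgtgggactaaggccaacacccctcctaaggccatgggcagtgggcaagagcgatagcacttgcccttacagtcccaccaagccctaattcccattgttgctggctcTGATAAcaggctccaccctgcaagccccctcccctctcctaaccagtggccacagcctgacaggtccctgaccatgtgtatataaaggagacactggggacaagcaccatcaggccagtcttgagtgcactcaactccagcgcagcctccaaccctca
Hbb-y: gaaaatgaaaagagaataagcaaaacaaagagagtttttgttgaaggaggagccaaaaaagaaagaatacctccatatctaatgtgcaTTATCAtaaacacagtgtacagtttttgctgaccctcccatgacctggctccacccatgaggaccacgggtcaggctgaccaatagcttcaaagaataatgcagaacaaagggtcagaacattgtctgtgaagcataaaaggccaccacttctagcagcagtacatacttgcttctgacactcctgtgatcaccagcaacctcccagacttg
Klf1: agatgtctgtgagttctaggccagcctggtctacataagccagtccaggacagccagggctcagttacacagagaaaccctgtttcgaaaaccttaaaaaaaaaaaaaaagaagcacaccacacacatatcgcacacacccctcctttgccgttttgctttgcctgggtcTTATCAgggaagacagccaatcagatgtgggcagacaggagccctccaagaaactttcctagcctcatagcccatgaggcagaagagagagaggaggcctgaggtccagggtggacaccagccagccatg

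The Hba-x window held TGATAA 108 bases before the start and AGATAG on the other strand at 234 bases. The Hbb-y and Klf1 windows each held TGATAA on the other strand, at 162 and 80 bases before the start. No Krüppel-like word was found, which says only that these letters are not in these windows. Of all 32851 promoters in the RefSeq table, 29.8% held at least 1 of the GATA words and 5.31% at least 1 of the Krüppel-like words, so a match is common and describes only these letters.

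The globin share of the erythroid cells ranged from 21.2% to 53.5% of a cell's UMIs, with a median of 36.0%. The cells just inside the threshold had 21.2%, 21.5% and 21.6%, and those just outside had 19.9%, 19.7% and 19.4%. The 10119 other cells of the library had a median of 0.0157%, and 36 of them lay between 1 and 20%. The selected cells made up 1.58% of the library's cells (exact 95% binomial interval 1.34 to 1.84) and held 88.5% of its globin UMIs. In the library labelled Ctrl, 0 of 7418 cells allows a share of up to 0.0404%. Its 2 highest cells reached 9.42% and 1.66%, and both carried UMIs of the platelet gene Pf4 and none of Klf1. Across that library Klf1 had 40 UMIs spread over 32 cells.

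**Figure D1:**
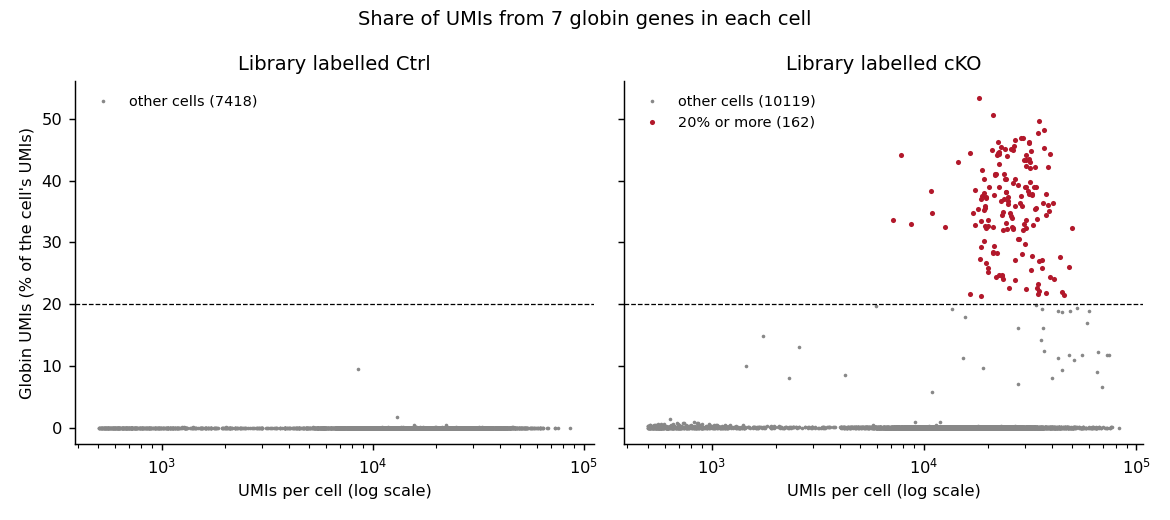
Share of a cell's UMIs from 7 globin genes (vertical axis, %) against its UMIs (horizontal axis, log scale) in the libraries labelled Ctrl and cKO; each point is a cell and the dashed line is the 20% threshold. The 162 selected cells lie between 21.2% and 53.5%, and no cell labelled Ctrl exceeds 9.42%.

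Genes outside the rule fit the name erythroid. Because the sequenced depth differs between cells, cells were also thinned to 1000 UMIs outside the globin genes. The thinned values leave out 338 of the 10119 other cells and 1 of the 431 endothelial cells. At that depth Alas2, the erythroid enzyme of haem synthesis, was detected in 53.1% of the erythroid cells (45.1 to 61.0) and in 0.112% of the other cells (0.0562 to 0.201). Among 430 endothelial cells, a type that should lack it, 0 held it at that depth, which allows a share of up to 0.698%; without thinning it was found in 5 of 431 (1.16%). Klf1 was detected in 23.5% (17.2 to 30.7) against 0.102% (0.049 to 0.188), and in 1 of the 430 endothelial cells. Without thinning, Alas2 was found in 100% and Klf1 in 96.9% of the erythroid cells, at a median of 16598 UMIs outside the globin genes, against 0.761% and 0.662% of the other cells at 14227.

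The erythroid cells were deep and held comparatively few genes. Their UMIs ranged from 7178 to 49687, with a median of 25742, against a median of 14223 in the library's cells under 1% globin. The number of detected genes was 1475 to 5424, with a median of 3140, below the 3626 of the other cells. Mitochondrial genes gave a median of 2.78% of the UMIs outside the globin genes, and ribosomal protein genes gave 32.4% of them in sum against 23.1% in the other cells. The 2 libraries shared 15 cell barcodes, and none belonged to an erythroid cell.

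A few of the selected cells also carried RNA of other lineages. In 21 of the 162, the cardiomyocyte, mesenchyme and pharyngeal lists together gave at least 10 UMIs (median 36, highest 95), whereas the remaining 141 held 0 to 7, with a median of 2; the other cells of the library had a median of 48. These 21 cells had a lower globin share (median 24.4% against 37.3%) and more UMIs (34590 against 24317), and 10 of them held UMIs of both Xist and Y-linked genes, as against 11 of all 162. A doublet score marked 15 of the 21 and none of the rest.

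The 36 cells between 1 and 20% globin had other features. In 7 of them mitochondrial genes gave over 10% of the UMIs (10.6 to 64.4%), with at most 5941 UMIs. The remaining 29 had a median of 43009 UMIs, 28 held at least 10 UMIs of the other lineage lists, 17 held both Xist and Y-linked UMIs, and the doublet score marked 26. All 29 had over 5% globin, and their values ran up to the threshold without a clear gap.

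Among the globins the embryonic genes dominated. Values per cell are UMIs; as 3′ counts they need no correction for transcript length. Hbb-y was the most abundant, with 1098 to 7958 UMIs per cell and a median of 4128, and every cell held it. Hba-x followed with 848 to 6537 and a median of 3305. Hba-a1, an alpha chain used from the embryo to the adult, had 335 to 2797 (median 1158.5), and Hbb-bh1 had 127 to 1036 (median 406.5). All 162 cells thus held over 100 UMIs of each of these 4 genes.

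The adult beta-type genes were far lower and more uneven. Hbb-bs had a median of 31.5 UMIs per cell but ranged from 0 to 584, and Hbb-bt had a median of 0 and a highest value of 160. Together they gave 0 to 11.6% of a cell's beta-type UMIs, with a median of 0.834%. In 87 cells the share was under 1%, in 17 it was 5% or more, and 4 cells had no UMI of either gene. Hba-a2 had 744 UMIs in all against 204422 for Hba-a1. Hba-a1 and Hba-a2, and likewise Hbb-bs and Hbb-bt, are near-identical copies. How the counting treated reads that match both copies was not tested. Their separate values, their sums and the shares built on them are therefore uncertain. The theta-type Hbq1b had 202 UMIs in 109 cells, and Hbb-bh2 and Hbq1a had 8 and 4 UMIs.

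The balance of chains was then compared from cell to cell. Alpha-type genes gave 49.8% of the globin UMIs in sum and 42.3 to 61.7% in single cells. Hbb-y made up 77.8 to 95.4% of the beta-type UMIs (median 89.2%), and Hbb-bh1 made up 4.28 to 15.5% (median 8.86%). Hba-x made up 63.2 to 85.3% of the alpha-type UMIs, with a median of 73.1%. Leaving out the 21 cells with RNA of other lineages gave medians of 89.2% for Hbb-y and 72.9% for Hba-x.

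The Hba-x share differed between cells with Xist and cells with Y-linked UMIs. Xist, transcribed from the inactive X of females, was found without Y-linked UMIs in 81 erythroid cells, and Y-linked genes (Ddx3y, Eif2s3y, Uty, Kdm5d) without Xist in 49; 11 had both and 21 neither. The shares of 50% and 30.2% stood beside 53.6% and 28.2% in the other cells of the library. The Hba-x share of alpha-type UMIs had a median of 75.5% (64.1 to 85.3) in the first class and 69.7% (63.2 to 76.9) in the second. The ranges overlapped, but 63 of the 81 Xist cells and 7 of the 49 Y cells lay above the median of all erythroid cells. As summed UMIs per 1000000 UMIs outside 10 globin genes (UPM), Hba-x stood at 211509 against 200564 and Hba-a1 at 69362 against 87498. For Hbb-y the shares were close, with medians of 89.3% and 88.6%. The adult beta-type share had medians of 1.10% and 0.525%, with ranges of 0 to 11.6% and 0 to 7.16%. The classes stem from a pair of pooled embryos, so sex and embryo cannot be told apart and no sample-level test was possible.

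**Figure D2:**
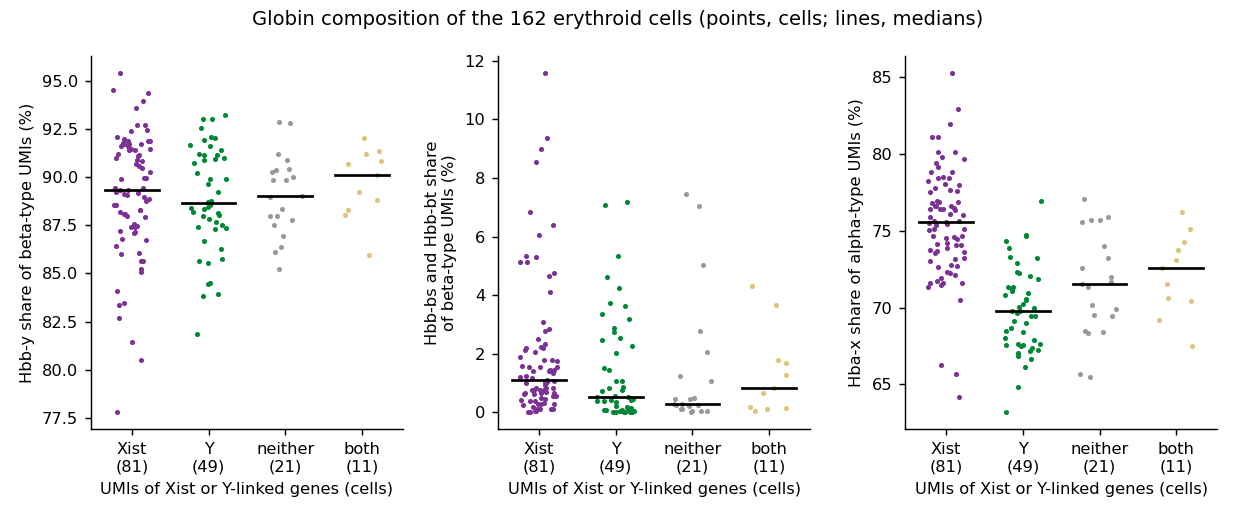
Hbb-y share and adult (Hbb-bs with Hbb-bt) share of beta-type UMIs and Hba-x share of alpha-type UMIs (vertical axes, %) in the 162 erythroid cells, split by UMIs of Xist or of Y-linked genes (horizontal axis, with cell numbers); points are cells and lines are medians. The Hba-x share has medians of 75.5% in Xist cells and 69.7% in Y cells, while the Hbb-y share stays close between them.

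Few genes outside the globins separated the 2 classes of erythroid cells. Of 1427 such genes with at least 100 UPM in 1 class, 5 were at least 2-fold higher in the Xist cells (0.35%) and 0 were at least 2-fold lower (0%), with intervals that exclude equality. Of the globin genes, which these counts leave out, Hbb-bt was at 349 against 116 UPM, a ratio of 3.01 (2.40 to 3.80). Its value is uncertain because it is a near-identical copy of Hbb-bs, which stood at 5366 against 4001. Xist was 1 of the 5, and its call was fixed because it defined the classes. The others were Ubb, a ubiquitin gene, Fabp5, a fatty acid binding protein, Mpg, a DNA repair glycosylase, and the histone gene H2afv. Fabp5 stood at 879 UPM in Xist cells and 237 in Y cells, a ratio of 3.70 (3.17 to 4.34), but at 1484 and 1455 in the same classes of the other cells. In contrast Ubb differed in both, with ratios of 4.34 (3.55 to 5.35) in the erythroid cells and 4.13 (4.06 to 4.20) in the others. Mpg, which lies near the alpha-globin genes on chromosome 11 at 32226505 to 32232702, had a ratio of 2.57 (1.81 to 3.73) against 1.47 (1.39 to 1.56). Snrnp25 in the same region, looked at after these values were seen, had 238 and 216 UPM, a ratio of 1.10 (0.916 to 1.34).

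Globin UMIs in the other cells of the library labelled cKO were few, and their beta-type makeup was close to that of the erythroid cells. There 87.2% of the 10083 cells under 1% globin held at least 1 globin UMI, with a median of 2. Hbb-y gave 89.9% (89.4 to 90.4) of their beta-type UMIs against 89.1% (89.0 to 89.1) in the erythroid cells, and Hbb-bh1 gave 8.13% against 9.20%. Hba-x gave 67.4% (66.6 to 68.3) of their alpha-type UMIs against 72.9%, and alpha-type genes were 43.9% against 49.8% of all globin UMIs. Where these UMIs came from was not tested. In the library labelled Ctrl 1.19% of the cells under 1% globin held a globin UMI, and the makeup was another one. Of 406 beta-type UMIs, Hbb-y gave 27.6% (23.3 to 32.2), Hbb-bh1 46.3% (41.4 to 51.3) and the adult genes 26.1% (21.9 to 30.7). Without the 2 cells with the highest share, both with UMIs of Pf4, 233 beta-type UMIs remained, of which Hbb-y gave 47.6% (41.1 to 54.3) and Hbb-bh1 30.9%.

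Against the other cells of their library, the erythroid cells showed a compact set of higher genes. UPM levels were summed over 2780489 UMIs outside the globin genes in the erythroid cells and 158373912 in the others. A gene counted as measured at 50 UPM in either group, and was called higher or lower at a 2-fold ratio whose exact 95% interval excluded 1. Of 3148 genes, 240 were higher (7.62%) and 755 were lower (24%), and the median log2 ratio was -0.25. When all UMIs, globin included, set the scale, the median was -0.87, and of 2969 genes 114 were higher (3.84%) and 1413 lower (47.6%). With no filter on low values, 779 of 16087 genes were higher (4.84%) and 4631 lower (28.8%). Without the 21 cells with RNA of other lineages, 271 were higher and 844 lower. Since the globin rule made this contrast, the counts describe the cells and test nothing. A gene that passed the limit of 50 UPM only through the group where it was high had to lie on that side, though not always by 2-fold. This held for all 8 measured erythroid factors of 20 listed, for 9 of 13 measured haem genes of 20 listed, for 14 of 17 membrane genes of 24, for 5 of 10 redox genes of 13 and for both genes of erythropoietin signalling of 13. It also held for 3 of 9 maturation genes of 21 and for 1 of 9 iron genes of 18. In the opposite direction it held for all 10 measured cardiomyocyte genes, 9 of 11 mesenchyme genes and all 5 pharyngeal genes, of 13 listed in each, and for 4 of 12 glycolysis genes of 18. The same was true of the 1 measured cell cycle inhibitor of 8, the 1 measured blood progenitor gene of 10 and 1 of 2 endothelial genes of 20. Of the S phase list it held for 1 of 19 genes, and of the G2 and M phase list for 2 of 24, of 25 listed in each. The counts per list thus follow in part from the filter. On the scale of all UMIs, 5 erythroid factors, 10 membrane genes and 1 maturation gene were still higher; 2, 4 and 2 of the calls ended because the gene no longer reached the 50 UPM limit, and 1 membrane gene no longer reached 2-fold.

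**Figure D3:**
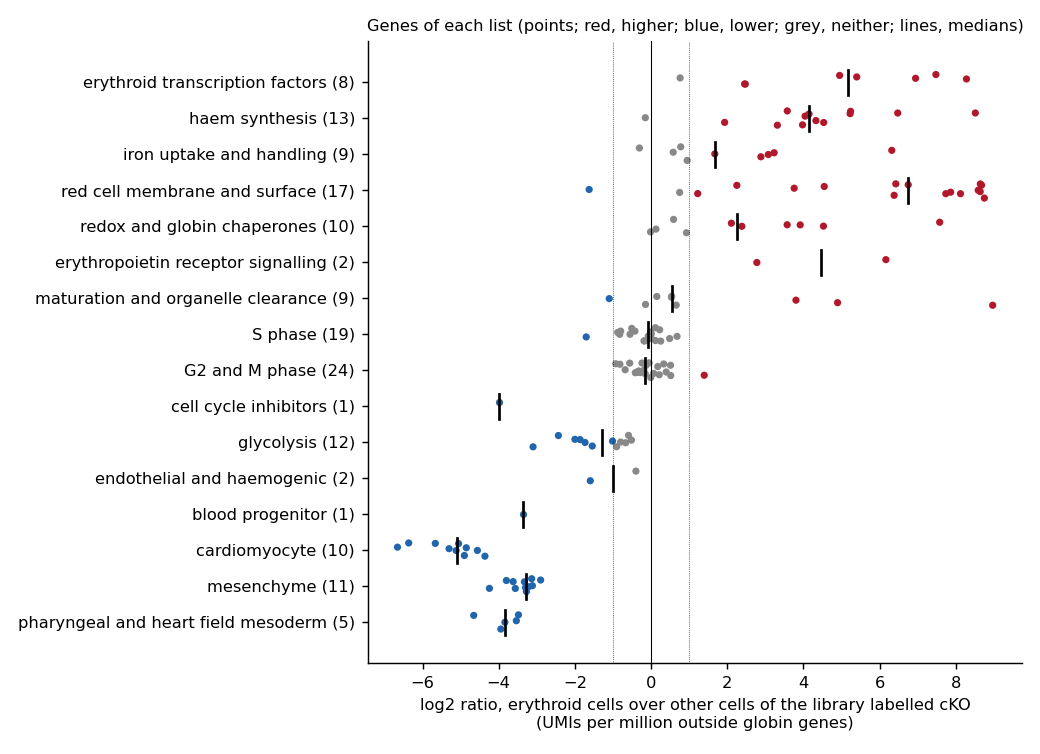
Log2 ratio of each measured gene, erythroid cells over the other cells of the library labelled cKO (horizontal axis), by gene list (vertical axis, with the number measured); points are genes, black lines are medians and dotted lines mark 2-fold. Erythroid lists lie to the right, cell cycle lists around 0, and heart, mesenchyme and pharyngeal lists to the left.

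Of the erythroid transcription factors, 7 of the 8 measured were higher and none was lower. Klf1 stood at 273 UPM (254 to 293) against 0.878 in the other cells, a ratio of 311 (259 to 375), and Gata1, the master regulator of red cells, at 88.8 against 0.499. Without the cells that the doublet score marked, in either group, the log2 ratio of Klf1 was 9.49 (8.28 with them) and that of Gata1 8.57 (7.48 with them). Tal1, its partner, was at 120 against 2.84, and Nfe2, which acts at globin enhancers, at 53.6 against 0.436. Lyl1, the Gata1 cofactor Zfpm1 and the bridging protein Lmo2 had ratios of 30.9, 5.55 and 5.48. Klf3 was at 60.8 against 35.8 and was not called. Among those under 50 UPM, Gfi1b had 90 UMIs and Ikzf1 had 101, at ratios of 197 (126 to 318) and 186 (123 to 287). Sox6, which in definitive cells helps to silence embryonic globin, had 2 UMIs in all, 0.719 UPM against 8.50. The general cofactor Ldb1 was at 22.7 against 33.3.

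Haem synthesis genes were higher almost throughout: 12 of 13 measured genes were higher and none was lower, with a median log2 ratio of 4.15. Alas2, which catalyses the first step, stood at 657 UPM against 1.80, a ratio of 365 (322 to 415), or 10.57 on the log2 scale without cells marked by the doublet score against 8.51 with them. Enzymes of later steps were also called, among them Alad (1552 against 77.3), Uros (181 against 10.2), Urod (478 against 48.0), Cpox (856 against 22.9), Ppox (97.1 against 6.18) and Fech, which inserts the iron (413 against 10.9). Blvrb, a biliverdin reductase, was at 1961 against 22.1. Alas1, the housekeeping form of the first enzyme, had 7 UMIs (2.52 UPM against 17.4; 2 UMIs without the 21 cells with RNA of other lineages), and Hmox1, which breaks haem down, had 9 (3.24 against 17.0). Both were too low in each group to be measured. In single cells the list gave 3260 to 13658 UPM, with a median of 9027.

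Of the 9 measured iron genes, 5 were higher and none was lower, with a median log2 ratio of 1.67. Fth1, the ferritin heavy chain, was the most abundant gene outside the globins, at 13980 UPM against 1491 (ratio 9.38, 9.28 to 9.48), and the light chain Ftl1 stood at 5156 against 1617. Tfrc, the transferrin receptor, was at 432 against 58.6, and Slc25a37 (mitoferrin), which carries iron into mitochondria, at 1042 against 13.1. Glrx5, needed for iron-sulphur clusters, was at 2027 against 240.2. The rest were not called, for example the iron chaperone Pcbp1 at 497 against 614 and the cluster scaffold Iscu at 111 against 74.6. Slc40a1 (ferroportin), the iron exporter, had 22 UMIs and Tfr2 had 16.

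Of the membrane and surface genes, 15 of the 17 measured were higher and 1 was lower, with a median log2 ratio of 6.75. The anion exchanger Slc4a1 (band 3) stood at 255 UPM (237 to 274) against 0.916, and beta-spectrin Sptb at 94.9 against 4.07. Ank1, which ties spectrin to band 3, was at 55.7 against 0.669. The Rhesus proteins Rhag and Rhd had ratios of 430 (295 to 647) and 213 (168 to 274). Cd24a was the lower one, at 111 against 343, and the glucose transporter Slc2a1 was not called at 116 against 69.1. Aqp1, the water channel of adult red cells, had 1 UMI, whereas Aqp3, among the 20 largest ratios outside the lists, had 284.

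**Figure D4:**
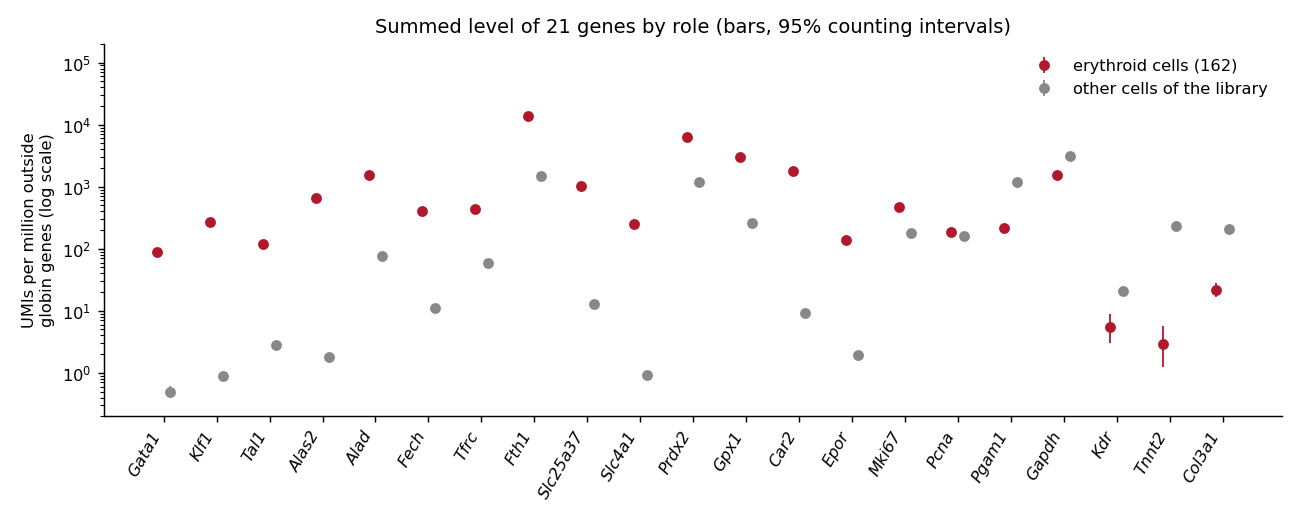
Summed UPM (UMIs scaled to 1000000 outside globin genes; vertical axis, log scale) of 21 genes, ordered by role along the horizontal axis, in the 162 erythroid cells (red) and the 10119 other cells of the same library (grey); bars are 95% counting intervals, mostly smaller than the points. Alas2 reads 657 against 1.80 and Gapdh 1530 against 3087.

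Of the redox and related genes, 6 of 10 were higher. Prdx2, a peroxidase abundant in red cells, stood at 6239 UPM against 1197, and Gpx1, a glutathione peroxidase, at 3044 against 256. Gclm, which supports glutathione synthesis, was at 569 against 37.8. The carbonic anhydrase Car2 was at 1760 against 9.22, and Bpgm, which makes the haemoglobin effector bisphosphoglycerate, at 572 against 24.9. Eif2ak1, the kinase that matches globin translation to haem, was at 118 against 27.4. Txn1, Sod1, Gsr and Hspa9 were not called, at ratios from 0.99 to 1.90.

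Erythropoietin receptor signalling was measurable for 2 genes and both were higher. Epor, the receptor, was at 138 UPM against 1.93, a ratio of 71.7 (61.5 to 83.5), and the kinase Pim1 at 283 against 41.3. Jak2, Stat5a and Stat5b had 39, 9 and 27 UMIs. Kit, the receptor of early erythroid progenitors, had 1 UMI.

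Of the 9 measured genes of maturation and organelle clearance, 3 were higher, 1 was lower and 5 were neither. Among all 3148 measured genes, 7.62% were higher and 24% lower. Of the 9, 3 passed the limit for measured genes only through the erythroid cells, so the count of higher genes follows in part from the filter. Trim10, an erythroid ubiquitin ligase, had the highest ratio of all listed genes outside the globins, 500 (379 to 672), at 177 UPM. Cpeb4, which controls translation in late erythroid cells, was at 53.2 against 3.81, and Ube2l6 at 58.3 against 1.96. Bnip3l (Nix), needed for the removal of mitochondria, was at 397 against 273, a ratio of 1.46 (1.37 to 1.55) that was not called. H1f0, a linker histone, was the lower one, at 69.1 against 148. Trim58 had 1 UMI and Tspo2 none; for Tspo2 the limit of 3 UMIs corresponds to 1.08 UPM.

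Cell cycle genes were present at about the level of the other cells on the scale outside the globins. Of 19 measured S phase genes none was higher and only Hells was lower, and of 24 G2 and M phase genes Mki67 alone was higher and none was lower. On the scale of all UMIs, 7 of 19 S phase genes and 6 of 24 of G2 and M phase were lower and none was higher, beside 47.6% lower among all genes on that scale. Mki67 stood at 477 UPM against 182, a ratio of 2.63 (2.49 to 2.78), and after thinning was detected in 37.0% of the erythroid cells (29.6 to 45.0) against 13.7% (13.0 to 14.4). With all UMIs its log2 ratio was 0.77 against 1.39 here. Pcna was at 185 against 158, Top2a at 313 against 393 and Ccnb1 at 181 against 126. The inhibitor Cdkn1c was at 39.9 against 640, and at 11.2 without the 21 cells with RNA of other lineages. In single cells the S list ranged from 328 to 5089 UPM and the G2 and M list from 474 to 11674.

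Each of the 162 cells held UMIs of both cycle lists, at least 2 of the S and 4 of the G2 and M list. Across the 162 cells the S and the G2 and M lists were inversely related (Spearman -0.56), and the G2 and M list increased with UMIs (0.64); both are descriptions over cells of 1 library that share depth. Only 3 cells lay under 1000 UPM on both lists, with 2 to 4 UMIs of S phase and 4 to 6 UMIs of G2 and M phase genes. Their globin shares were 44.2%, 44.5% and 53.5%, the last the highest of all, and they held 7755 to 18141 UMIs. They were noticed after the values were seen. Mitochondrial genes gave 6.17%, 2.63% and 3.99% of their UMIs outside the globin genes, and they had 1475, 2300 and 1910 genes, the first the fewest of the 162; the part of cell quality in these values was not tested. They also held 12 of the 31 UMIs of the inhibitor Cdkn1a, which was found in 9 of the 162 cells.

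Glycolysis genes lay on the lower side, with 7 of 12 lower and none higher and a median log2 ratio of -1.28. Gapdh was at 1530 UPM against 3087, Pgam1 at 219 against 1185 (125 without the 21 cells with RNA of other lineages), Eno1 at 242 against 806, Pkm at 295 against 1072 and Ldhb at 16.5 against 142 (2.24 without them). Aldoa, Tpi1, Gpi1, Pfkl and Ldha had ratios from 0.534 to 0.70 and were not called. The Gapdh call lay at the limit: its log2 ratio was -1.01, but -0.75 against endothelial cells and -0.63 against the library labelled Ctrl, and it also missed 2-fold with means over cells. Against the library labelled Ctrl, 5 of 13 measured glycolysis genes were lower, beside 30.5% lower among all 3376 genes measured there. On the scale of all UMIs all 12 were lower, where globin in the total lowers every other gene and 47.6% of all genes were lower. Pklr, the red cell pyruvate kinase, had 107 UMIs and a ratio of 290 (181 to 488), and Hk1 stood at 30.2 against 12.2; both lay under 50 UPM.

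Lists of other cell types were low. All 10 measured cardiomyocyte genes, all 11 of mesenchyme and all 5 of pharyngeal and heart field mesoderm were lower, with median log2 ratios of -5.09, -3.30 and -3.84. In sum the mesenchyme list gave 279 UPM against 2712, and 66.0 without the 21 cells with RNA of other lineages. Summed, the endothelial and haemogenic list gave 117 against 298 in the other cells and 3098 in the 431 endothelial cells of the library (cells outside the selection with UMIs of at least 5 of 10 endothelial genes), and 65.5 without those 21. Egfl7 alone made up 53.6 of the 117, and Kdr had 1 UMI without the 21 cells. The megakaryocyte list summed to 15.1 UPM with 8 of 13 genes at 0 and 3 UMIs of Pf4, the macrophage list to 2.52 with 9 of 14 at 0, and the blood progenitor list to 22.3 (12.6 without those 21) with 3 of 10 at 0. Runx1 and Itga2b had 23 and 25 UMIs, at ratios of 4.87 (3.03 to 7.46) and 12.7 (7.89 to 19.8). Tbx1, the gene carrying the loxP sites in the cKO embryos, had 7 UMIs (2.52 UPM against 45.2; 1 UMI without the 21), so that these cells cannot check the label.

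Endothelial cells, which share an origin with blood, served as a second comparison group. Against the 431 endothelial cells 239 of 3154 measured genes were higher (7.58%) and 785 lower (24.9%). These cells were chosen by endothelial genes, so their high level of that list was fixed by the choice. Higher were 6 of 8 measured erythroid factors, 12 of 13 haem genes, 5 of 9 iron genes and 15 of 18 membrane genes. Tal1 and Lmo2, which endothelium also uses, were at 38.2 and 161 UPM in endothelial cells against 120 and 93.5 in the erythroid cells. Epor was at 4.36 in them and Tfrc at 30.3.

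Beyond the lists, the 20 largest ratios named further genes of these cells. Hemgn, a nuclear factor of blood cells, led with 388 UPM against 0.916, a ratio of 423 (356 to 507), and was found in 96.9% of the cells. Ncf4, a subunit of the phagocyte oxidase, was at 249 against 0.796, the keratin Krt15 at 355 against 1.17, and Cited4, a transcriptional coactivator, at 690 against 2.98 and in 100% of the cells. Nxpe2, Aqp3 (a channel for water and glycerol), Pdzk1ip1 and the long noncoding RNA Redrum had ratios from 238 to 277. The metallothionein Mt2 was at 304 against 2.27, Acp5 (an acid phosphatase) at 210 against 1.81, Mrap at 227 against 2.69 and Ell2, an elongation factor, at 152 against 1.82. Mgst3, a microsomal glutathione transferase, was the most abundant of the 20, at 1675 against 24.3. Slc30a10, Plek2, Ifi35, Slc25a21, Slc38a5 and Tspan32 also belonged to the set, with ratios from 71.1 to 152.

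The 10 smallest ratios outside the lists belonged to Ankrd1, Nebl, Tagln, Hspb1, Sh3bgr, Acta2, Csrp3, Alcam, Lpp and Myl9. Acta2, smooth muscle actin, was at 10.4 UPM against 446 and Tagln at 2.16 against 189 (0.898 without the 21 cells). Ankrd1 had 1 UMI in the 162 cells against 52.0 UPM in the others. Of the 15 most abundant genes outside the globins, 11 coded for ribosomal proteins, and the others were Fth1, Prdx2, Eef1a1 and Ppia.

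Measures of single erythroid cells were then related to each other. Across the 162 cells, the globin share went with the haem list (Spearman 0.66; 0.53 without the 21 cells with RNA of other lineages, 0.73 within the Xist cells and 0.31 within the Y cells) and inversely with the number of genes detected (-0.50, and -0.31). It was also inversely related to the Hba-x share, at -0.39 over all cells, -0.61 within the Xist cells and -0.62 within the Y cells. The Hbb-y share and the adult beta-type share, which use the same denominator, were inversely related at -0.57. These are descriptions over cells of 1 library, and the measures share each cell's counts.

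**Figure D5:**
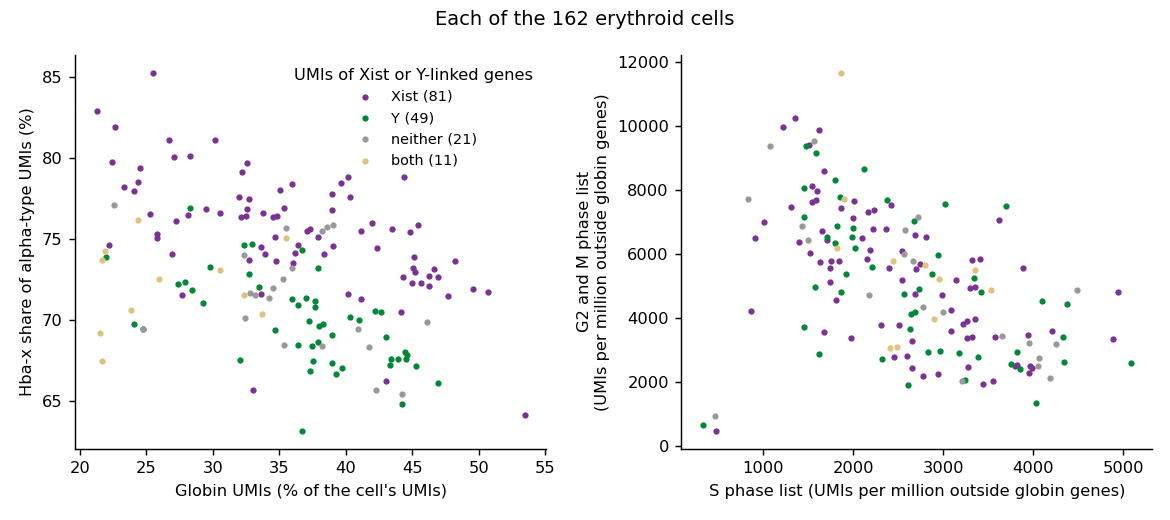
Left, Hba-x share of alpha-type UMIs against globin share (both %); right, G2 and M phase list against S phase list (UPM); each point is 1 of the 162 erythroid cells, coloured by UMIs of Xist or Y-linked genes. The Hba-x share declines with the globin share in both classes, at Spearman -0.61 in Xist and -0.62 in Y cells, and 3 cells sit low on both cycle lists.

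Splits of the erythroid cells by their globins found few genes outside the globins that differed. Between the 54 cells with the highest and the 54 with the lowest Hbb-y share, 6 of 1450 genes were higher (0.414%) and 2 were lower (0.138%). The higher ones were Tuba1a, Marcksl1, Id3, Vim, Marcks and Tmsb4x, with ratios from 2.01 to 2.90, and the lower ones were Sod1 (91.6 against 207 UPM) and Cox6b2 (99.2 against 211). Vim belongs to the mesenchyme list, and without the 21 cells with RNA of other lineages 1 gene was higher and 1 lower. By Hba-x share, a split chosen after the data were seen, 4 of 1429 genes were higher in the upper 54 cells (0.28%) and 0 were lower, namely Xist, Fabp5, Ubb and Mpg, and these sets held 46 against 5 Xist cells. By adult beta-type share, 1 of 1415 was higher, Xist (0.0707%).

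A split by globin share, chosen after the data were seen, was made over the 141 cells with few UMIs of other lineages. Of 1447 genes, 3 were higher in the 47 cells with the highest share than in the 47 with the lowest (0.207%), and 4 were lower (0.276%). The metallothioneins Mt1 and Mt2, which bind zinc and other metals, were at 1187 against 547 and at 506 against 228 UPM, and Rnh1, a ribonuclease inhibitor, at 166 against 70.4. The lower genes were Mcm3, a replication licensing factor (65.6 against 160), Usp10, Fabp5 (388 against 839) and Fam98a. These sets had medians of 44.3% and 32.0% globin and of 14355 and 16594 UMIs outside the globin genes.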

How the data were processed

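The data were 2 droplet-based 3′ single-cell RNA libraries, 1 per genotype. The deposited values are raw counts of UMIs per gene and cell, which the authors obtained by aligning reads to mm10 and counting with Cell Ranger (3.1.0 in the submitters' processing notes) and carry no normalization. All barcodes deposited were used, 7418 and 10281 cells with 132017331 and 162874391 UMIs over 27998 genes. Chemistry and depth limit what a count of 0 can show.

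The erythroid cells, the gene lists and the rules for naming genes were chosen with earlier results of these data known. UMIs were summed over cells and expressed per 1000000 UMIs outside 10 globin genes (UPM), because a globin share that differs between cells would otherwise lower all other genes. Ratios carry exact conditional 95% intervals, single levels exact Poisson intervals, and shares exact (Clopper-Pearson) binomial intervals; a count of 0 was given the limit that 3 counts set. All cover counting error only. With 1 library per group no test between samples was made and no p-value is given. The calling step was run on simulated counts that held counting error only, so it cannot show how the calls handle differences between cells or embryos. Named genes were all listed genes, the 20 largest and 10 smallest ratios outside the lists, the 15 most abundant genes outside the globins, and the largest differences between the 54 cells with the highest and the 54 with the lowest Hbb-y share. Doublets were scored with Scrublet in scanpy 1.11.5, and the top scores were marked at 0.8% per 1000 cells (846 in the library labelled cKO), but the cells were kept. Sums and intervals were computed with Python 3.11.15, numpy 2.4.6, scipy 1.17.1 and pandas 2.3.3. Promoters and gene positions came from RefSeq tables of GRCm38.p6; of the 240 higher genes 188 had a promoter there. Flvcr1, Ahsp, Tent5c and the Hbb-bh1 promoter were not analysed here. A few genes of the lists are not reported here by name.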

Additional observations from a re-analysis of the deposited data

How the results depend on the processing

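Of 155 recomputed counts and shares, 135 stayed within 1.5 times of the main value (medians of shares: within 1 SD over cells) and 20 moved. A threshold of 40% left 47 cells. With all UMIs as the scale, 114 of 2969 genes were higher and 1413 lower, with 12 of glycolysis and 2 of the endothelial list lower. With no filter on low values the counts were 779 (4.84%) and 4631 (28.8%) of 16087, with 14 of 20 erythroid factors, 11 of 18 iron genes and 7 of 13 of erythropoietin signalling higher and 15 of 20 of the endothelial list lower. Against endothelial cells, 16 of the endothelial list, whose genes chose those cells so that this was fixed, and 7 of the mesenchyme list were lower, and over Y cells alone 0 of the endothelial list was. Between the cells with the highest and lowest Hbb-y share, 1 gene was higher with means over cells, without the deepest 25% of cells, when split at the median, or without cells with 10 or more UMIs of other lineages; split at the median 0 were lower, and without those cells 1 was. The cause of these shifts was not tested, beyond what the fewer or more genes and cells of a setting bring. Of 216 recomputed log2 ratios of 18 genes, 119 lay outside the counting interval of the main value, and 2 changed sign, both of genes that were not called: Bnip3l, 0.54 in the main comparison, was at -0.09 with all UMIs as the scale, and Top2a, at -0.33, was at 0.18 against endothelial cells. Without cells marked by the doublet score, the log2 ratios of Slc4a1, Car2 and Kdr were 9.43, 8.45 and -5.62 against 8.12, 7.58 and -1.98. Over the 12 alternatives that of Klf1 ran from 7.47 to 9.81, of Gata1 from 6.85 to 9.43 and of Alas2 from 7.86 to 12.70. That of Slc4a1 ran from 7.39 to 15.04, and that of Car2 from 5.71, against endothelial cells, to 8.63. Leaving out the cells with RNA of other lineages, and the splits by Hba-x, adult beta-type and globin share, were chosen after seeing the data. No paired analysis was possible because each group had 1 library and no test was made. Depth limits genes under about 1.08 UPM, the level of 3 UMIs in the erythroid cells.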
